A study of Diplotaxodon limnothrissa and Petrotilapia genalutea and Rhamphochromis longiceps with 60 samples.

Results

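Muscle-only DMRs are differentially methylated regions between cichlid species that were called in muscle and overlap no such region in liver. They were chosen by position: a region of the list called between the muscles of Diplotaxodon limnothrissa (DL), Petrotilapia genalutea (PG) and Rhamphochromis longiceps (RL) was kept if it shares no base with the list called between the livers of the same 3 species. This left 1824 of the 4390 muscle DMRs (41.5%), out of 50673 regions in the 4 deposited lists. The other 2566 muscle DMRs overlap a liver DMR, and 3335 of the 5787 liver DMRs (57.6%) overlap no muscle DMR. The paper's text prints slightly different totals for the muscle and liver DMRs of these species. Its muscle-specific share is counted among DMRs unique to a single species, so 41.5% is not that share.

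DNA methylation in vertebrates is the addition of a methyl group to cytosine, mostly where a guanine follows (CG sites). Most CG sites of a fish genome are methylated, and unmethylated stretches often mark promoters and other regulatory DNA. Methylation at promoters is typically linked to silence of the gene. Part of the pattern is laid down in the early embryo and shared by all tissues, and part is set as a tissue differentiates. Membership here means only that no liver DMR was called at the same place, and when a difference arose was not tested. Muscle arises from mesoderm and liver from endoderm.

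The fish were wild-caught, and the methylomes of the 3 species used here come from fish labelled male. DL is a deep-water pelagic carnivore, PG a rock-dwelling algae eater and RL a pelagic piscivore, all of Lake Malawi. Muscle methylomes came from 2 fish of each species (DL fish 1 and 2, PG fish 1 and 3, RL fish 2 and 3), and liver methylomes from 3 DL, 3 PG and 2 RL fish as the names of the averaged tracks give it, although 3 RL livers are labelled. A second liver list adds livers of Maylandia zebra (MZ), Aulonocara stuartgranti (AS) and Astatotilapia calliptera (AC). The paper marks 1 of the 2 AS fish as female, and AS was sequenced on another instrument with shorter reads. The last list holds regions between liver and muscle within DL, PG and RL. The homogenised tissues hold every cell type of the sample, and neither the purity of the muscle nor that of the liver was checked with marker genes here.

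In whole-genome bisulfite sequencing, unmethylated cytosines are converted and methylated ones are not, so that each CG site can be read. The authors called DMRs between groups of replicates with the program DSS, at p < 0.05. A DMR also had to differ in methylation by more than 25% over at least 50 bp and at least 4 CG sites. The lists give positions on the M. zebra UMD2a assembly and carry no methylation level, coverage, direction or pair of species. A muscle DMR and a liver DMR that overlap may therefore differ between other pairs of species or in opposite directions. Each list exists once, so that there is no replicate of a list and no test between replicates could be made. The paper called DMRs between pairs of species, and each list holds them without the pair. Whether a listed region joins the calls of several pairs was not checked, and lengths are those of listed regions. Counts and lengths below describe the lists, and intervals cover counting error alone, since neighbouring regions are not independent. Fewer methylomes entered the muscle list than the liver list, 6 against 8, and the study's sequencing sheet lists fewer reads kept per muscle than per liver. The part of this difference in which regions appear in muscle alone was not tested. Genes, exons and promoters near the regions and the bases of the regions were not analysed here, since no sequence or annotation of UMD2a was used.

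Muscle-only DMRs were short. Their median length was 169 bp (95% interval from binomial ranks 162 to 180 bp, n = 1824), against 407 bp (389 to 427 bp, n = 2566) for muscle DMRs that overlap a liver DMR, which is 2.41 times as long. The middle 80% of muscle-only DMRs lay between 66 and 472 bp, and that of the overlapping muscle DMRs between 105 and 1073 bp. They therefore made up 41.5% of the muscle DMRs and 24.5% of the bases of that list, 441 kb of 1798 kb. Of the muscle-only DMRs, 526 (28.8%) were shorter than 100 bp and 30 (1.64%) were longer than 1000 bp, against 241 (9.39%) and 308 of the 2566 overlapping ones. A longer region has more bases that can meet a liver DMR, and the part of this in the contrast was not tested.

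The share of muscle DMRs that were muscle-only fell from class to class of length. It was 68.6% of the 767 muscle DMRs of 50 to 99 bp, 58.7% of 853 at 100 to 199 bp, 43.8% of 1184 at 200 to 399 bp, 21.5% of 1061 at 400 to 799 bp and 9.52% of 525 at 800 bp and over. The liver list gave the same order at a higher level, with 89.0% of its 865 DMRs of 50 to 99 bp and 18.2% of its 872 DMRs of 800 bp and over found in liver alone. Liver DMRs had fewer regions of the other tissue to meet, 4390 against 5787. The part of this in the higher level, and that of length itself in the order, was not tested. Liver-only DMRs were also the longer of the sets found in 1 tissue, since muscle-only DMRs had a median of 169 bp and liver-only DMRs one of 216 bp (207 to 222 bp, n = 3335).

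**Figure D1:**
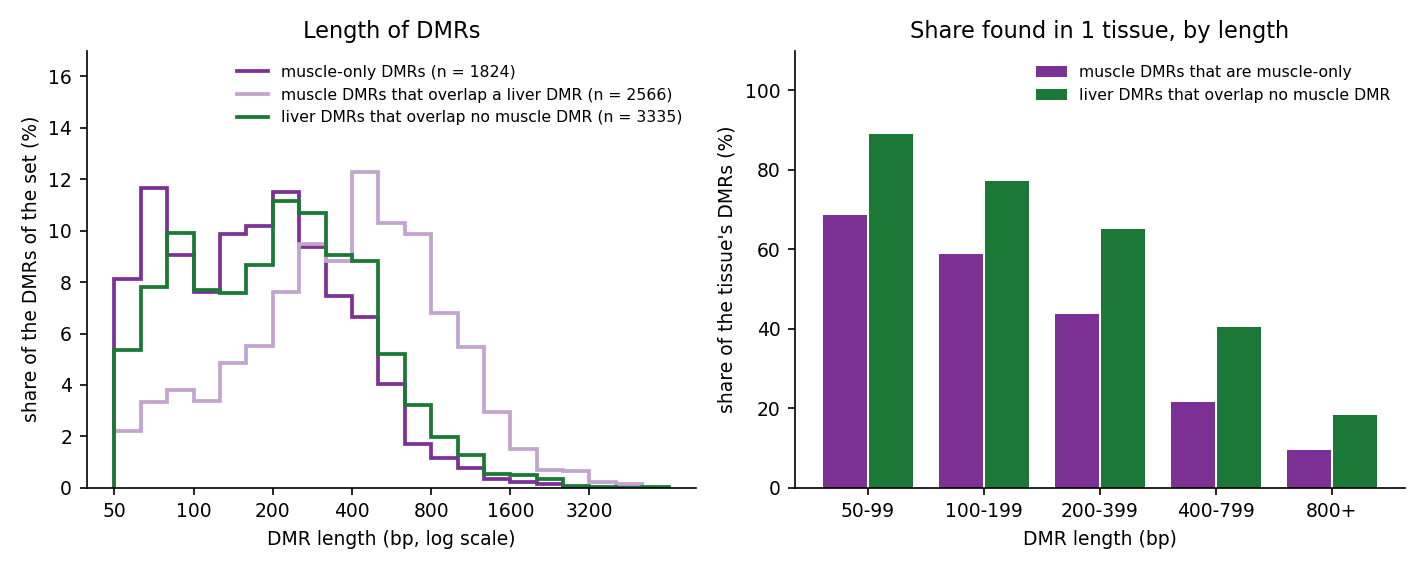
Left, share of DMRs (%) in bins of length (bp, log scale) for muscle-only DMRs, muscle DMRs that overlap a liver DMR and liver DMRs that overlap no muscle DMR. Right, share (%) of the DMRs of each tissue that were found in that tissue alone, by length class. Muscle-only DMRs are shifted to short lengths, and their share of the muscle list declines to 9.52% at 800 bp and over.

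The 5 longest muscle-only DMRs lie on 3 placed sequences. The longest, on NC_036783.1 from 12024376 to 12029349, measured 4974 bp and touched no region of the 3 other lists. The nearest liver DMR of DL, PG and RL was 25.1 kb away and the nearest 6-species liver DMR 15.0 kb. The next, on NC_036786.1 from 41498356 to 41502671 (4316 bp), also stood apart from every other list, with the nearest 6-species liver DMR 7.17 kb and the nearest between-tissue DMR 12.2 kb away.

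The other 3 of the longest all met a DMR between tissues, which is a region where methylation of liver and muscle differed within a species. They are NC_036790.1 from 15891887 to 15894298 (2412 bp, all of it inside a between-tissue DMR), NC_036783.1 from 3634703 to 3637073 (2371 bp, likewise all inside) and NC_036786.1 from 62656570 to 62658934 (2365 bp, of which 2121 bp or 89.7% lay in 2 between-tissue DMRs). The same 3 share more bases with between-tissue DMRs than any other muscle-only DMR.

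Overlap with DMRs between tissues was more frequent among muscle-only DMRs than in the rest of the muscle list. Of the 1824, 254 overlapped a between-tissue DMR by at least 1 bp (13.9%, Wilson 95% interval 12.4 to 15.6%), against 34 of the 2566 muscle DMRs that overlap a liver DMR (1.33%, 0.950 to 1.85%). Over all 4390 muscle DMRs the share was 6.56%. Among liver DMRs it was 239 of the 3335 found in liver alone (7.17%, 6.34 to 8.09%) and 42 of the 2452 that overlap a muscle DMR (1.71%). The same muscle methylomes entered the muscle list and the between-tissue list, so these overlaps are no independent evidence of each other. The choice of members also favours the higher muscle-only share, because a species difference called in muscle alone makes a difference between tissues more likely. The same holds for liver-only DMRs, and nothing is read from these contrasts.

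The share was higher in every class of length, and the choice of members favours this direction in each class too. Of muscle-only DMRs, 12.2%, 15.2%, 13.7%, 11.4% and 34.0% overlapped a between-tissue DMR from the shortest class to the longest, against 0.830%, 1.14%, 1.35%, 1.20% and 1.89% of the muscle DMRs that overlap a liver DMR. In the longest class the muscle-only share rests on 17 of 50 regions, and it was 12 of 45 (26.7%) without the largest cluster, which is described below. Liver-only DMRs overlapped one in 5.32%, 6.69%, 5.79%, 10.4% and 15.7% in the same order of classes, below muscle-only DMRs in each. These sets were closest between 400 and 799 bp, at 26 of 228 (11.4%) muscle-only and 60 of 578 (10.4%) liver-only DMRs. On placed sequences 198 of 1330 muscle-only DMRs met a between-tissue DMR (14.9%) and on unplaced sequences 56 of 494 (11.3%).

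**Figure D2:**
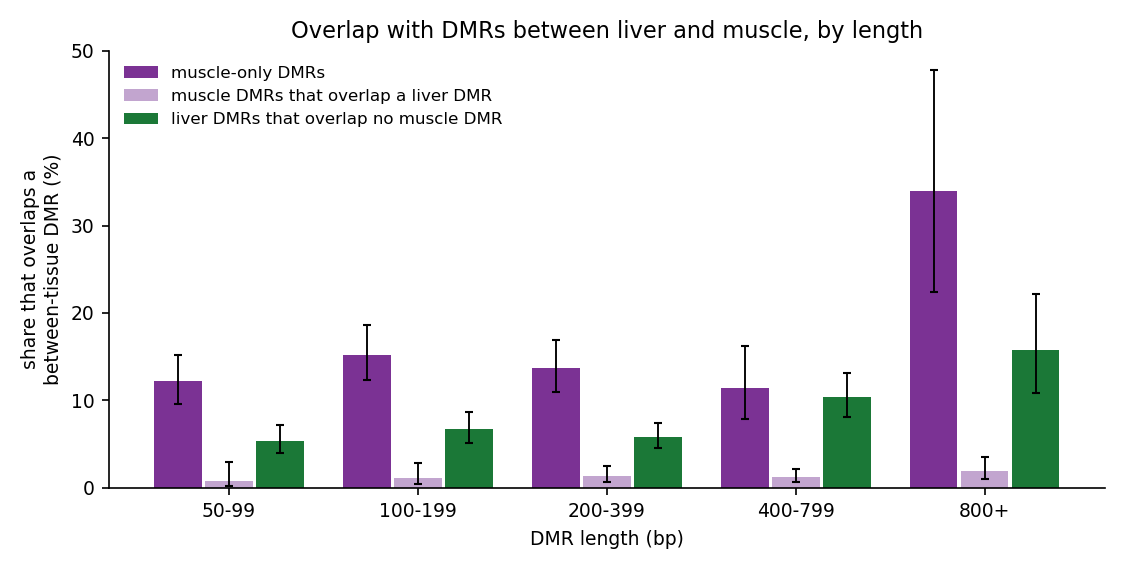
Share (%) of DMRs that overlap a between-tissue DMR by at least 1 bp, by length class, for muscle-only DMRs, muscle DMRs that overlap a liver DMR and liver DMRs that overlap no muscle DMR. Bars are shares and lines are Wilson 95% intervals. Muscle-only DMRs reach 34.0% (17 of 50) at 800 bp and over, and muscle DMRs that overlap a liver DMR stay at or below 1.89% in each class. The choice of members favours this direction, and the intervals cover counting error alone.

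Most muscle-only DMRs that met a between-tissue DMR lay within it. Of the 254, 173 (68.1%) were fully inside between-tissue DMRs, 41 had the same start and end as one, and 35 (13.8%) shared less than 50% of their bases. The shared bases came to 58.6 kb, 13.3% of all bases of muscle-only DMRs. They fell in 246 of the 27165 between-tissue DMRs (0.906%), whose median length was 237 bp, against 249 bp for the between-tissue DMRs that hold no muscle-only DMR.

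Some muscle-only DMRs overlapped the liver list of 6 species, which was called with MZ, AS and AC beside DL, PG and RL and does not say which species differ. Of the 1824, 418 (22.9%, Wilson 95% interval 21.0 to 24.9%) overlapped a 6-species liver DMR. Over all 4390 muscle DMRs the share was 68%, and it was 100% for the 2566 that overlap a liver DMR of the 3 species. Every liver DMR of DL, PG and RL overlaps the 6-species list. The choice of members therefore lowers the muscle-only share, and nothing is read from its distance to 68%. Of the 418, 370 (88.5%) met only 6-species DMRs that hold no liver DMR of DL, PG and RL, a share that the same choice raises. The other 48 met one that does, so that the longer 6-species DMR bridges a muscle-only DMR and a liver DMR of the 3 species. Seen from the 6-species list, 360 of its 7684 DMRs without a liver DMR of the 3 species held a muscle-only DMR (4.69%), and 46 of the 5647 with one did (0.815%). The choice of members lowers the second share, since every muscle DMR that shares a base with a liver DMR of the 3 species was removed, and nothing is read from this contrast.

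Here too the regions were mostly nested, with 281 of the 418 (67.2%) fully inside 6-species DMRs and 41 with the same start and end. The muscle-only DMRs that share most bases with the 6-species list are NW_020192438.1 from 36619 to 37873 (1255 bp, all shared, 0.958 kb from a liver DMR of the 3 species), NC_036791.1 from 33464651 to 33465881 (1231 bp, all shared, 12.8 kb away) and NC_036796.1 from 34042030 to 34043549 (1520 bp, of which 1052 bp shared, 91.9 kb away). None of these 3 met a between-tissue DMR.

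Set against both lists, 1161 muscle-only DMRs (63.7%) overlapped neither, 409 (22.4%) a 6-species liver DMR, 245 (13.4%) a between-tissue DMR and 9 (0.493%) both. The median length was 155 bp for those in neither list, 225 bp for those in the 6-species list alone and 166 bp for those in the between-tissue list alone. Of those in neither list 29.0% lay on unplaced sequences, which was 24.7% for the 6-species list alone and 21.6% for the between-tissue list alone.

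By position, few muscle-only DMRs were near misses of the rule. A liver difference at the same place that fell just short of the calling thresholds cannot be seen, since the lists carry no methylation level. At the edge of the rule, 3 muscle-only DMRs touch a liver DMR without sharing a base, and 5, these 3 included, lie within 10 bp of one. The touching ones are NC_036800.1 from 7307926 to 7308177 (252 bp), NW_020192519.1 from 164851 to 164912 (62 bp) and NW_020193969.1 from 3772 to 3954 (183 bp), and each lies fully in a 6-species liver DMR. Just outside the set, 20 muscle DMRs share 10 bp or less with a liver DMR. Those with a single shared base include NC_036780.1 from 7348124 to 7348299 (176 bp), NC_036781.1 from 24912713 to 24912919 (207 bp) and NC_036782.1 from 12669949 to 12670088 (140 bp). Of the 2566 muscle DMRs that overlap a liver DMR, 1818 are covered by liver DMRs in full and 27 (1.05%) by less than 10%.

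Beyond the edge, gaps to the nearest liver DMR reached 690 kb. The gaps that an even spread of liver DMRs would give were not computed, so they are not called wide or narrow. Of the 1824, 32 (1.75%) lay within 100 bp of a liver DMR, 189 (10.4%) within 1 kb, 482 (26.4%) within 10 kb and 1273 (69.8%) within 100 kb. The median gap was 33.7 kb (quartiles 7.59 and 99.9 kb) for the 1695 with a liver DMR on the same sequence, and 129 lay on unplaced sequences with none. Liver-only DMRs were farther from the nearest muscle DMR, with a median of 46.8 kb and 251 of 3335 (7.53%) within 1 kb. The muscle list holds fewer regions than the liver list, and the part of this in the gaps was not tested. To the nearest muscle DMR that does overlap liver, muscle-only DMRs had a median gap of 94.0 kb, and 86 (4.71%) lay within 1 kb.

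**Figure D3:**
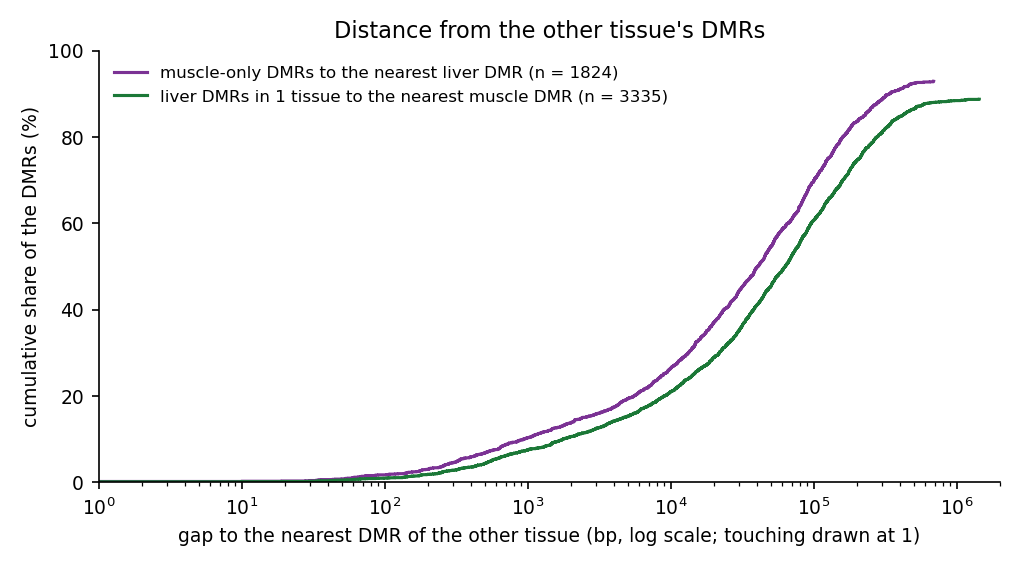
Cumulative share (%) of muscle-only DMRs by the gap to the nearest liver DMR of DL, PG and RL, and of liver-only DMRs by the gap to the nearest muscle DMR (bp, log scale). Regions on sequences without a DMR of the other tissue are counted in the total and never reached. At 1 kb the lines stand at 10.4% and 7.53%.

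Muscle-only DMRs were spread over 371 sequences of the assembly. The 22 placed sequences, which stand for chromosomes, held 1330 of them, 1.75 per Mb of the 760 Mb spanned by the lists. The lowest density was 1.01 per Mb on NC_036780.1 (39 DMRs) and the highest 2.44 per Mb on NC_036782.1 (91 DMRs), and 18 of the 22 lay between 1.4 and 2.2 per Mb. NC_036782.1 also had the highest density of liver-only DMRs, 5.39 per Mb, and the lowest of between-tissue DMRs, 21.7 per Mb. NC_036780.1 had the lowest density of liver-only DMRs too, 2.18 per Mb.

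As a share of the muscle DMRs of a sequence, muscle-only DMRs ranged between 28.3% of 138 on NC_036780.1 and 50.4% of 135 on NC_036789.1, with 39.1% over all placed sequences. The other 494 muscle-only DMRs (27.1%) lay on 349 unplaced sequences, against 494 (19.3%) of the overlapping muscle DMRs and 955 (28.6%) of the liver-only DMRs. The share on unplaced sequences was thus close for muscle-only and liver-only DMRs. Of the muscle DMRs on unplaced sequences, 50% were muscle-only. No unplaced sequence held more than 6 muscle-only DMRs, and 254 held 1. Muscle-only DMRs on unplaced sequences were the shorter, with a median of 153 bp, against 179 bp on placed ones. The same order held for overlapping muscle DMRs (331.5 against 427.5 bp) and for liver-only DMRs (179 against 231 bp).

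**Figure D4:**
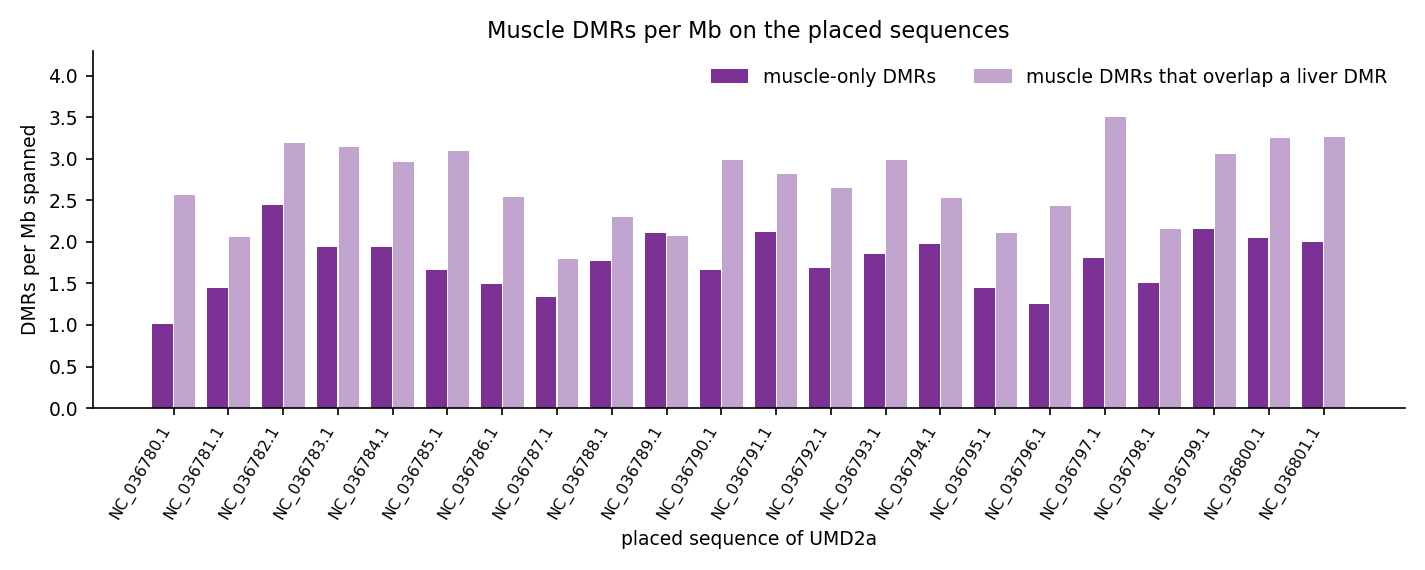
Muscle-only DMRs and muscle DMRs that overlap a liver DMR per Mb spanned by the lists, for each of the 22 placed sequences of UMD2a. Muscle-only DMRs lie between 1.01 and 2.44 per Mb, below the overlapping ones on 21 of the 22 sequences.

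Along the placed sequences the ends held somewhat more muscle-only DMRs than an even spread gives. The outermost 10% of the spanned length at each end together held 312 of 1330 (23.5%), where an even spread gives 20%. The same ends held 26.1% of the overlapping muscle DMRs, 23.4% of the liver-only DMRs and 16.6% of the between-tissue DMRs. Windows of 1 Mb held 1.73 muscle-only DMRs on average. Of 770 windows, 581 (75.5%) held at least 1 and 189 held none.

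Most muscle-only DMRs had no other muscle-only DMR within 10 kb. The median gap to the next one was 103 kb for the 1570 with another on the same sequence, and 254 had none there. Counting muscle DMRs of either kind, 500 (27.4%) had one within 10 kb. Within the set, 298 of the 1824 (16.3%) had another within 10 kb. This compares with 728 of 2566 (28.4%) of the overlapping muscle DMRs and 697 of 3335 (20.9%) of the liver-only DMRs. Both of these sets are larger, and the part of their number in the closeness of neighbours was not tested. At a distance of 10 kb the 298 formed 127 clusters, of which 100 were pairs, 20 had 3 members and 7 had 4 or more.

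The largest cluster held 12 muscle-only DMRs, and the next held 6. The largest cluster of overlapping muscle DMRs at the same distance held 6 and that of liver-only DMRs 5. It runs over 42.6 kb of NC_036799.1, from 2029078 to 2071657, and its members cover 8.33 kb or 19.6% of it. A first group begins with a DMR of 391 bp from 2029078 to 2029468, followed by DMRs of 125 bp (from 2029663), 159 bp (from 2029840), 129 bp (from 2037639), 488 bp (from 2039693) and 300 bp (from 2044342). A second group holds the 5 members over 1000 bp, of 1762 bp (from 2053016), 1307 bp (from 2054870), 1118 bp (from 2057295), 1178 bp (from 2058950) and 1299 bp (from 2061884 to 2063182). The last member is a DMR of 74 bp from 2071584 to 2071657.

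All 12 lay fully inside DMRs between tissues. The stretch holds 11 between-tissue DMRs that cover 21.4 kb, the longest of 4469 bp, and 8 of them contain the 12 muscle-only DMRs. No liver DMR of either list and no other muscle DMR falls in it, with the nearest liver DMR of DL, PG and RL 242 kb away and the nearest 6-species liver DMR 64.6 kb away. One more muscle-only DMR lies 21.0 kb before it, and the next after it is 1875 kb away. The window of 1 Mb around it, from 2000001 to 3000000, held the most muscle-only DMRs of any window, 13, all of them in between-tissue DMRs, beside 1 overlapping muscle DMR, 4 liver-only DMRs and 64 between-tissue DMRs. Without this cluster, 242 of the other 1812 muscle-only DMRs (13.4%) met a between-tissue DMR.

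**Figure D5:**
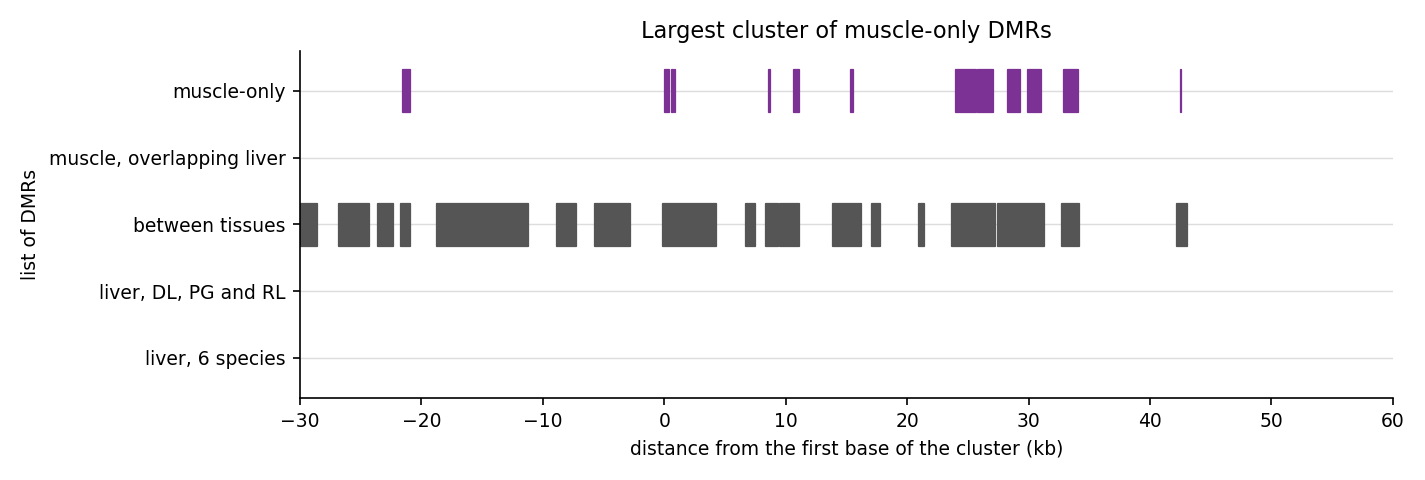
Regions of the lists around the largest cluster of muscle-only DMRs, on a scale of kb from its first base. Each box is a DMR, drawn to scale with a thin outline that merges the closest neighbours, with 12 muscle-only DMRs between 0 and 42.6 kb, 1 more before it and between-tissue DMRs under each of them. The rows of the liver lists and of muscle DMRs that overlap liver are empty.

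Other dense clusters were of either kind. Of the 7 clusters with 4 or more members, 3 lay in between-tissue DMRs with every member, 3 with none and 1 with 2 of its 4. The second largest, 6 DMRs of 84 to 1145 bp over 16.1 kb of NC_036800.1 (from 20640434 to 20656485), had all 6 in between-tissue DMRs, as had 4 DMRs of 200 to 796 bp on NC_036795.1 from 17396229 to 17404277. Of those with none, the tightest put 4 DMRs of 59 to 157 bp into 0.570 kb of the unplaced NW_020192628.1, 0.124 kb from a liver DMR. Muscle-only DMRs with another within 10 kb overlapped between-tissue DMRs in 50 of 298 cases (16.8%), against 204 of 1526 (13.4%) of those without a neighbour. Without the 2 largest clusters, which lie in between-tissue DMRs with every member, the share of those with a neighbour was 32 of 280 (11.4%), so that the direction of this difference rests on these clusters.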

How the data were processed

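Regions were taken from the 4 lists that the authors deposited for liver and muscle methylomes. The authors trimmed reads with TrimGalore, mapped them with Bismark to versions of UMD2a that carry the single-base variants of each species, removed duplicates and called regions with DSS. The deposited columns are starts and ends in bp, with no score or signal. Starts were taken as 0-based, which makes the shortest region 50 bp long, and are printed 1-based. Regions of a list do not overlap each other.

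Muscle-only regions share no base with the 3-species liver list. Overlaps of at least 1 bp were counted in Python 3.11.15 with numpy 2.4.6, pandas 2.3.3 and scipy 1.17.1, and checked with bedtools 2.31.1 and on simulated lists with known overlaps and gaps. A gap is the number of bases between 2 regions, and clusters join regions with gaps of at most 10 kb. Densities use the largest end of any list as the length of a sequence. Figures were drawn with matplotlib 3.10.9.

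No test was run, because each list exists once and regions are not replicates. The coverage behind each region is not given in the files used here. Named regions are the 5 longest, the 3 nearest to and 3 just past the rule's edge, the 3 with most bases in each other list, the largest cluster and the densest window of 1 Mb. The clusters of 4 to 6 members were chosen after their values were seen. The members and the choice of comparisons were made with earlier results of these data known. The 2 tables of gene expression were not used, since regions were not tied to genes.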

Additional observations from a re-analysis of the deposited data

How the results depend on the processing

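Over the 10 alternatives, 26 of 48 values stayed the same, which means inside the 95% interval of the main value. For the count, which has no interval, it means a factor of at most 1.5. A minimum length raises the median by itself, and another distance changes the share with a neighbour by itself, so this tally is no measure of robustness. The count of 1824 muscle-only DMRs ranged between 1330 and 2706, apart from 902 where all lists were limited to DMRs of at least 200 bp. With that limit the median length was 331 bp, the share in between-tissue DMRs 10.2%, that in 6-species liver DMRs 28.2%, that on unplaced sequences 24.4% and that with another within 10 kb 13.3%. With DMRs of at least 100 bp the median was 239 bp, and the shares in 6-species DMRs, on unplaced sequences and with a neighbour were 25.7%, 24.8% and 13.5%. A reciprocal overlap of 50% gave a median of 193 bp, 10.1% in between-tissue DMRs, 48.0% in 6-species DMRs and 25.4% with a neighbour. Removing muscle DMRs only where liver DMRs cover at least 50% gave a median of 190 bp and 30.9% in 6-species DMRs, and removing those within 1 kb of a liver DMR gave 20.5% in 6-species DMRs. With the 6-species list in place of the 3-species list, the median was 161 bp, the share in between-tissue DMRs 17.4% and that with a neighbour 13.5%, and the share in 6-species DMRs is 0 by construction and was not computed. Distances of 1 kb and 100 kb gave 9.27% and 42.5% with a neighbour. Under each alternative that changed the set, the share of muscle-only DMRs in between-tissue DMRs was above that of the muscle DMRs removed, which lay between 0.749% and 1.44%. Each of these alternatives still chose members by their position against liver DMRs, which favours this direction, so nothing is read from it. A list of placed sequences alone has no share on unplaced ones. No paired analysis was possible because the results come from no test. Alternatives of gene expression were not run, since no annotation of UMD2a was used. Depth of coverage is not in the lists, so whether a region missing in one tissue lacked a difference or lacked reads was not tested.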
